A study of Mus musculus with 6 samples.

Results

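The proteasome genes described here are the protein-coding genes of the RefSeq GRCm38 annotation on chromosomes 1 to 19, X and Y whose symbol begins with Psma to Psmg followed by a digit. The rule found 51 of 21887 genes. Of these, 49 encode subunits of the proteasome, its activators, its inhibitor or its assembly factors. The remaining genes match by name only. Psmc3ip encodes a factor of meiotic recombination, and Psme3ip1 encodes a protein that binds the activator Psme3.

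The proteasome degrades proteins that carry ubiquitin. Its barrel-shaped 20S core holds outer rings of Psma subunits and inner rings of Psmb subunits, some of which cut the substrate, and the 19S cap of Psmc ATPases and Psmd subunits recognises, unfolds and feeds the substrate. Interferon-induced subunits can replace the catalytic ones, and the transcription factor Nfe2l1 is known to raise proteasome genes when proteasome activity is short. Rxra, a retinoid X receptor, is a nuclear receptor that binds DNA mostly as a partner of other nuclear receptors at repeats of the motif AGGTCA.

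Chromatin was profiled by CUT&Tag, in which an antibody directs a transposase so that released fragments mark the bound place. The labels describe OG2X129 mouse embryonic fibroblasts in chemical reprogramming, as 2 samples with CD and an H3K27ac antibody, 2 samples with DMSO and an H3K27ac antibody, and 2 samples with overexpressed Flag-tagged Rxra and a Flag antibody. The series title names CD3254, an agonist of retinoid X receptors, and the labels do not spell out CD. They give neither the reprogramming day, nor the treatment of the Flag-Rxra cells, nor whether replicates were separate cultures. H3K27ac is a mark of active promoters and enhancers.

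Each H3K27ac condition had 1 peak list for both samples, so CD and DMSO values have no replicate error and no test was possible between them. The CD list held 104437 regions (37.3 Mb) and the DMSO list 75482 regions (31.1 Mb). Flag-Rxra had a list per replicate, with 28243 and 45999 peaks. Fold is the authors' enrichment of a peak over their peak caller's background, and it ranks peaks within a list. The lists hold no read counts, so depth is unknown. Of 10 fibroblast markers, 5 had an H3K27ac region within 1 kb of a gene end in CD and 5 in DMSO, while Col1a1, Col1a2, Thy1 and Postn had none in either list. Regions in CD and DMSO lay at 2 and 0 of 5 macrophage, 0 and 3 of 4 endothelial, 2 and 1 of 4 epithelial and 1 and 0 of 4 pluripotency markers. The part of other cells in the values below was not tested.

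Flag-Rxra peaks called in both replicates lay at the ends of 30 of the 51 proteasome genes. That is 58.8% (exact 95% interval 44.2 to 72.4), against 32.6% of all protein-coding genes. A gene is called bound here when a replicate 1 peak that overlaps a replicate 2 peak lies within 1 kb of either annotated end. Bound means a called peak, since no control library was used here. Whether the authors' peak calling used a control library is not given in the sources. The interval covers counting error only, as genes are not independent replicates. The count was 16 when peaks below a −log10 q of 20 were dropped (24.2% of all genes) and also 16 when replicate peaks had to overlap by 50% (20.2% of all). Taken by itself, replicate 1 had a peak at 38 proteasome genes, against 41.7% of all genes, and replicate 2 at 33, against 42.1%. Psmb10 is bound but not among these 33, since the replicate 2 peak that overlaps its replicate 1 peak lies outside the 1 kb windows. None of the 30 peaks lay in H3K27ac regions of −log10 q of 5 or more in both lists.

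Over all protein-coding genes, the bound share was higher among those with a CpG-rich promoter or an H3K27ac region at an end. Of 43 proteasome genes with a RefSeq promoter sequence, 26 had a CpG-rich promoter, defined as an observed over expected CpG ratio of 0.6 or more and at least 50% G and C over 250 bases (60.5%, against 41.8% of all genes with a sequence). Among genes with such a promoter, 17 of 26 proteasome genes were bound (65.4%, 44.3 to 82.8), against 57.4% of all, which lies within the interval. Whatever the promoter, 58.8% of proteasome genes and 32.6% of all genes were bound. Psmd1, Psmd4, Psmd9, Psmb10, Psma3, Psmc1, Psmg4, Psmb5, Psmb8 and Psmb9 were bound with a promoter sequence that was not CpG-rich. Among genes with an H3K27ac region at an end in CD or DMSO, 27 of 43 proteasome genes were bound (62.8%, 46.7 to 77.0), against 50.6% of all. Of genes without such a region, 3 of 8 proteasome genes and 12.2% of all were bound. The part of promoter type and acetylation in the bound share was not tested. Within 1 kb of a RefSeq start site, 27 of 43 proteasome genes had a shared peak, against 33.3% of all. Among these 27 were Psma3 and Psmf1, whose start sites lie inside the gene, outside the windows around its ends. Psmb8, bound beyond its far end, was not among them.

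The peaks lay at the start of the genes. Of the 30 bound genes, 27 had a RefSeq start site, and for 26 of these the summit was nearer to the gene's start than to its far end. The summit lay within 250 bp of the start site at 21 of 27 genes in replicate 1 and at 20 in replicate 2. The same shares over all bound genes were not computed, so this placement is not shown to be particular to proteasome genes. The median distance between the summits of both replicates was 102 bp. The exception was Psmb8, whose summit lay 731 bp beyond its far end. Another protein-coding gene had an annotated end, its start or its far end, within 1 kb of the peak at 9 of the 30 genes (30.0%). Of all bound genes 31.2% had such a neighbour. Such neighbours were Rnf31 at Psme2, Mrpl32 at Psma2, Sirt3 at Psmd13, Ss18l1 at Psma7, Tap1 at Psmb9 and Pcgf2 at Psmb3. The others were Ftsj3 at Psmc5, Retreg3 at Psmc3ip, and Rspry1 and LOC115486880 at Psme3ip1. The peaks at these 9 genes cannot be assigned to the proteasome gene alone.

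**Figure D1:**
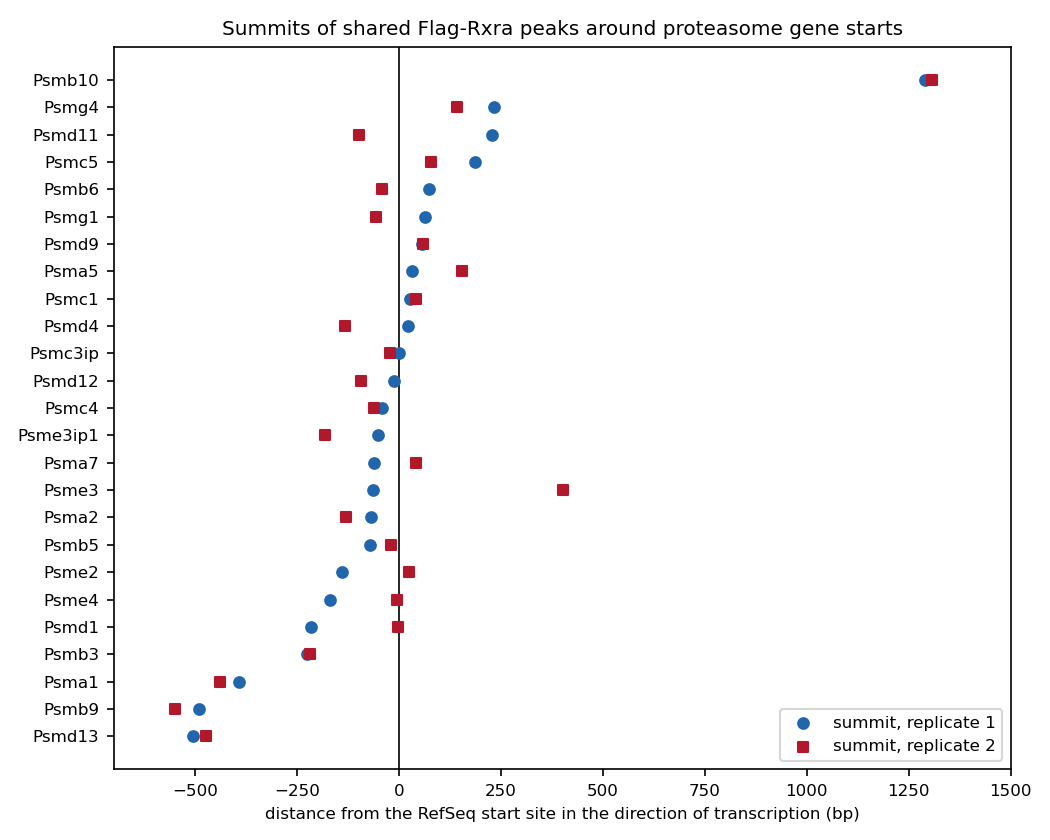
Position of Flag-Rxra summits relative to the RefSeq start site in bp, with replicate 1 as circles and replicate 2 as squares. Of the 27 bound proteasome genes with a start site, 25 are drawn and most lie within 250 bp. The peaks at the gene ends of Psma3 (6058 bp upstream) and Psmb8 (3990 bp downstream) fall outside the axis.

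By strength these peaks were ordinary. The 30 peaks had a median fold of 10.1 in replicate 1 and 15.1 in replicate 2, where all 17623 shared peaks had 10.3 and 14.4. The 6406 shared peaks at gene ends had medians of 10.96 and 15.22, a little above the 30 in both replicates. In replicate 1, 14 of the 30 lay above the median of shared peaks, and in replicate 2, 16 did. Fold was higher in replicate 2 at 26 of the 30 genes, as at 83.2% of all shared peaks. Across the 30 genes, which share both libraries and are not independent replicates, the fold of the replicates had a Spearman correlation of 0.374 and a Pearson correlation of 0.459.

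**Figure D2:**
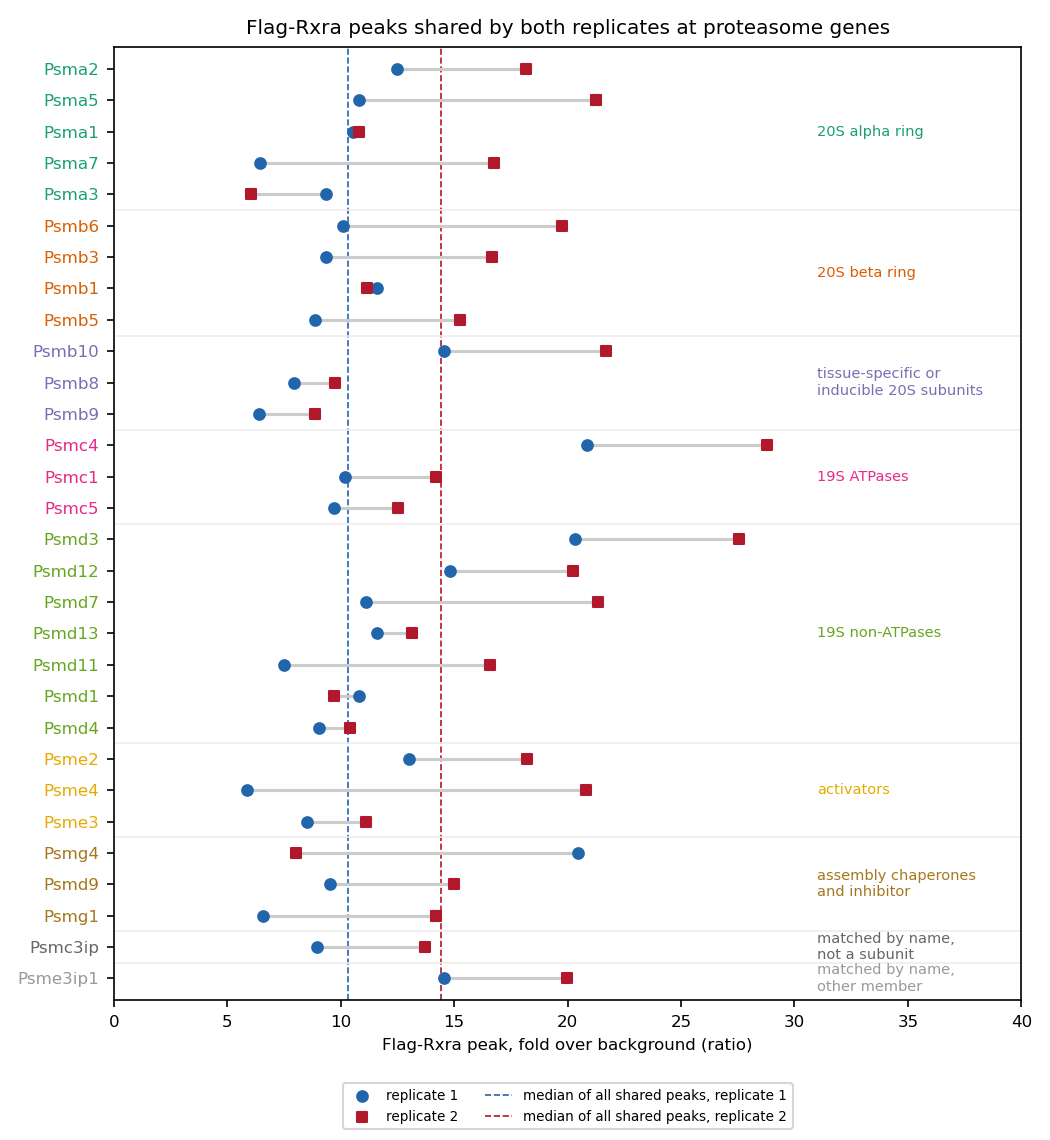
Fold of the shared Flag-Rxra peak at each of the 30 bound proteasome genes, with replicate 1 as circles, replicate 2 as squares and dashed lines at the medians of all shared peaks (10.3 and 14.4). Psmc4 and Psmd3 stand to the right in both replicates, and Psmg4 is the widest pair with replicate 1 above replicate 2.

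Among the 19S ATPases, the ring of motors that unfold substrates, 3 of 6 genes were bound, where 32.6% of all genes were. These were Psmc4, Psmc1 and Psmc5. Psmc4 carried the strongest peak of all proteasome genes by mean rank (chr7:28050022-28050286, mm10), with folds of 20.8 in replicate 1 and 28.8 in replicate 2. These values exceed those of 97.5% and 96.2% of shared peaks. The summits lay 42 and 63 bp upstream of the start site. Psmc1 had folds of 10.2 and 14.2, and Psmc5 9.72 and 12.5, both below the medians of all shared peaks. A stronger replicate 1 peak within 1 kb of an end of Psmc1 (fold 13.2, −log10 q of 36.5) overlapped no replicate 2 peak. Psmc2, Psmc3 and Psmc6 had no shared peak.

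The 250 bases upstream of the start site (RefSeq, GRCm38.p6) are printed for 4 bound genes in which a sought motif lay inside the shared peak. Psmc4 and Psma7 show AGGTCA, the unit that nuclear receptors bind. Psmb5 and Psmb6 show TGACNNNGC, the type of site that Nfe2l1 and Nfe2l2 bind with small Maf proteins. Capitals mark these matches, and in Psma7 also the NF-Y box CCAAT. Each runs 5′ to 3′ on the strand of the gene. They come from chr7:28050093-28050342 (minus strand) for Psmc4, chr2:180042465-180042714 (minus) for Psma7, chr14:54617996-54618245 (minus) for Psmb5 and chr11:70525107-70525356 (plus) for Psmb6.
Psmc4: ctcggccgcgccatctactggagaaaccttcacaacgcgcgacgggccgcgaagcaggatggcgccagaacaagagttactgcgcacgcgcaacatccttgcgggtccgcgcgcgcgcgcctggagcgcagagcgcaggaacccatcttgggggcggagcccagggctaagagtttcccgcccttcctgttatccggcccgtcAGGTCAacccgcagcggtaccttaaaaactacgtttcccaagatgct
Psma7: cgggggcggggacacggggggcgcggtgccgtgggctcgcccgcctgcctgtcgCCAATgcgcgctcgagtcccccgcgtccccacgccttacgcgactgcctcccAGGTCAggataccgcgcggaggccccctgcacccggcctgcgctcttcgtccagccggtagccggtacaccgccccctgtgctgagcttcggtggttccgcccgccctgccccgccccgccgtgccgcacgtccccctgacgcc
Psmb5: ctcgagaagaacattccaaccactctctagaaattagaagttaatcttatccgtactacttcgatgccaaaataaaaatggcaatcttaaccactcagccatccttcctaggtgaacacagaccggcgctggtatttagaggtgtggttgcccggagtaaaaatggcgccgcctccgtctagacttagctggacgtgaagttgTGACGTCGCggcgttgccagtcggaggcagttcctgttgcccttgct
Psmb6: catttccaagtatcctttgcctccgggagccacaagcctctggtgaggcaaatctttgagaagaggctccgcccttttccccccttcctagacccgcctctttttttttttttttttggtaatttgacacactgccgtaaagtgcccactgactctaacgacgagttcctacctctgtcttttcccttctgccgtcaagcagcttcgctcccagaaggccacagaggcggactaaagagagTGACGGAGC

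In Psmc4 the AGGTCA match covers positions −47 to −42, and the replicate 1 summit falls on its last base at −42. In Psma7 it covers −144 to −139, with the summits 62 bp upstream and 40 bp downstream of the start. The TGACNNNGC match covers −47 to −39 in Psmb5 and −9 to −1 in Psmb6. Both strands were searched over 250 upstream bases of 43 proteasome genes and 17492 genes in all. AGGTCA was found in 9 proteasome genes (20.9%), against 12.5% of all promoters and 7.67% of CpG-rich ones, and in 6 of the 27 bound genes with a sequence. It lay inside the shared peak in 3 of these, Psmc4, Psma7 and Psmc3ip. Direct repeats of it with 1 base between were found in 0 of the 43 and in 8 of all promoters, and those with 4 bases between in 0 of both. TGACNNNGC was found in 5 proteasome promoters (11.6%), namely Psmb5, Psmb6, Psmc6, Psmd9 and Psmd12, against 10.5% of all. CCAAT stood in 16 (37.2%), against 36.5% of all, and the GC box GGGCGG in 23 (53.5%), against 42.7% of all and 73.2% of CpG-rich ones. The ETS site CCGGAAG stood in 12 (27.9%), against 9.15% of all promoters and 16.2% of CpG-rich ones, and inside the shared peak of 7 genes, among them Psmd4, Psmd11 and Psmd12. A match describes the letters only, and these shares were not tested.

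Of the 19S non-ATPase subunits, which include ubiquitin receptors, the lid and the large scaffolds of the base, 7 of 11 genes were bound (32.6% of all genes). Psmd3, a lid subunit, followed Psmc4 in strength (chr11:98682078-98682623), with folds of 20.3 and 27.5 and −log10 q of 112 and 167, the highest −log10 q of the 30 in both replicates. Psmd12, also of the lid, had folds of 14.8 and 20.3 with its replicate 1 summit 13 bp upstream of the start. Psmd7, the lid partner of the deubiquitinase Psmd14, had 11.1 and 21.3. Psmd13 had 11.6 and 13.1, with its summit 505 bp upstream, toward Sirt3. Psmd4, a ubiquitin receptor, had 9.05 and 10.4. The large scaffold gene Psmd1 had 10.8 and 9.71, and the lid gene Psmd11 7.51 and 16.6. Psmd2, Psmd6, Psmd8 and Psmd14 had no shared peak.

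In the 20S core, 5 of 7 alpha genes and 4 of 7 beta genes were bound, where 32.6% of all genes were. Psma2 had folds of 12.5 and 18.2 and Psma5 10.8 and 21.2, the highest of the alpha ring, whose subunits gate the entry to the core. Psma3 had the weakest peak of the 30 in replicate 2, with folds of 9.33 and 6.05. Its summit stood 718 bp from the annotated gene end and 6058 bp upstream of the RefSeq start site. That start site lies outside the windows around the gene ends. Another shared peak lay within 1 kb of it, and its fold is not given here. Psma1 had 10.6 and 10.8 and Psma7 6.44 and 16.8, while Psma4 and Psma6 had no shared peak. Psmb6, a catalytic subunit with caspase-like activity, had 10.1 and 19.7, and Psmb5, with chymotrypsin-like activity, had 8.87 and 15.3. Their summits lay within 100 bp of the start in both replicates. The third catalytic gene, Psmb7, had no Flag-Rxra peak in either replicate. Psmb3 had 9.37 and 16.7 on a peak that spans its start and lies within 1 kb of an end of Pcgf2, and Psmb1 had 11.6 and 11.1. Psmb4 had no peak in either replicate.

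The interferon-inducible catalytic genes all had a shared peak within the windows (32.6% of all genes), but away from their starts. Psmb8, the counterpart of Psmb5, had folds of 7.94 and 9.75 beyond its far end (chr17:34202116-34202889). Its replicate 2 fold was 6.26 when the peak with the summit nearest a gene end was taken. A stronger replicate 2 peak within 1 kb of an end of Psmb8 (fold 16.6, −log10 q of 46.5) overlapped no replicate 1 peak. Psmb9, the counterpart of Psmb6, had 6.40 and 8.88 at 491 bp upstream, on the side of Tap1, a transporter of peptides for antigen presentation. Psmb10, the counterpart of Psmb7, had 14.5 and 21.7 at 1291 bp inside the gene (chr8:105936863-105937416). In both replicates the summits of the shared peaks of these 3 genes lay more than 250 bp from the start. The testis subunit gene Psma8 and the thymus subunit gene Psmb11 had no peak in either replicate.

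Of the activators, Psme2 had folds of 13.0 and 18.2, Psme4 5.87 and 20.8, and Psme3 8.53 and 11.1. Psme1 and Psme2 together form an interferon-inducible cap, and Psme3 and Psme4 encode nuclear activators. Psme4 had the lowest replicate 1 fold of the 30 and a replicate 2 fold above 81.3% of shared peaks. Psme1 had a peak in replicate 1 only (fold 9.76), and Psme2b, a gene resembling Psme2, had none. Reads could be shared between Psme2 and Psme2b, as mapping filters are not given in the sources used here.

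Assembly factors and the inhibitor were bound at 3 of 8 genes (37.5%, against 32.6% of all genes). Psmg4 had folds of 20.4 and 8.04, so that it ranked high in replicate 1 and low in replicate 2. Psmd9 had 9.52 and 15.002, and Psmg1 6.56 and 14.2. Psmd5, Psmd10 and Psmg2 had a peak in replicate 1 only, and the inhibitor Psmf1 and the chaperone Psmg3 had none at their ends. The RefSeq start site of Psmf1 lies outside the windows around its ends, and a shared peak lay within 1 kb of that start site. The name-only genes Psmc3ip (8.97 and 13.7) and Psme3ip1 (14.6 and 19.97) were both bound. Without them 28 of 49 genes were bound.

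Of the 21 genes without a shared peak at an end, 7 had a peak in replicate 1 only, 3 in replicate 2 only, 1 in both without overlap and 10 in neither. The 10 genes are 19.6% of the 51, where 50.5% of all genes had a peak in neither replicate. Replicate 1 only held 13.7% of the 51, replicate 2 only 5.88% and both without overlap 1.96%. Over all genes these shares were 7.11%, 7.79% and 1.98%. Psmb2, a core beta subunit gene, had a replicate 1 peak of fold 27.3 and −log10 q of 82.1 (chr4:126677625-126677902). Its summit lay 80 bp from an annotated end of the gene, with strand not used. The fold of 27.3 was the highest replicate 1 fold among all protein-coding genes without a shared peak, and the nearest replicate 2 peak lay 32376 bp away. Psmc3, a 19S ATPase gene, had a replicate 1 fold of 18.3 with its summit 22 bp from an end and no replicate 2 peak within 7718 bp. Psmb2 and Psmc3 thus stood above 99.5% and 96.3% of replicate 1 peaks. The other genes with a replicate 1 peak only had folds of 8.07 (Psmg2) to 13.05 (Psmd10), and those with a replicate 2 peak only were Psmd14 (6.58), Psmc6 (10.5) and Psmd2 (11.1). In Psmd8 the replicate 2 peak (fold 15.1) had its summit 14 bp from an end, and the replicate 1 peak (fold 4.96) lay 816 bp away from that peak.

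H3K27ac regions lay at the ends of 28 of 51 proteasome genes in CD and of 36 in DMSO. These are 54.9% (40.3 to 68.9), against 38.3% of all genes in CD, and 70.6% (56.2 to 82.5), against 35.8% of all genes in DMSO. Both lists had a region at 21 genes (21.2% of all genes), CD alone at 7 (17.1% of all), DMSO alone at 15 (14.7% of all), either list at 43 (53% of all) and neither at 8. Over all protein-coding genes more were marked in CD than in DMSO, and over proteasome genes fewer. With CpG-rich promoters, 14 of 26 proteasome genes were marked in CD (53.8%), against 53.5% of all such genes, and 20 of 26 in DMSO (76.9%, 56.4 to 91.0), against 54.0%. The regions were weak, with a median −log10 q of 1.69 over the marked proteasome genes in CD and 1.70 over those in DMSO, where both lists stop at 1.00. Over all marked genes the medians were 1.49 in CD and 1.61 in DMSO. From a −log10 q of 2 upward, 6 proteasome genes were marked in CD (6.65% of all genes) and 13 in DMSO (8.84% of all). From 5 upward none was marked in CD (0.155% of all), and only Psmg2 (9.21) was marked in DMSO (0.151% of all).

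**Figure D3:**
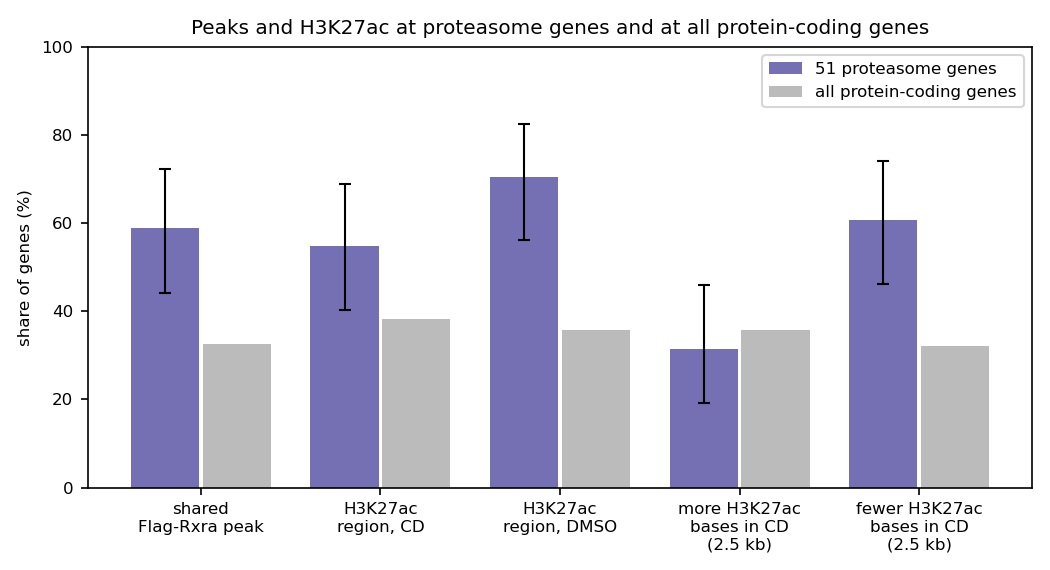
Share of genes in percent with a Flag-Rxra peak in both replicates, with an H3K27ac region within 1 kb of an end, and with more or fewer H3K27ac bases in CD than in DMSO within 2.5 kb, for the 51 proteasome genes (left bars, exact 95% intervals) and all protein-coding genes (right bars). The proteasome bars for the DMSO region (70.6%) and for fewer bases in CD (60.8%) stand farthest above the bars of all genes (35.8% and 32.1%).

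The 7 genes marked in CD alone were Psmb1, Psmb11, Psmc3, Psmc5, Psmd2, Psmc3ip and Psme3ip1. Psmd2, the large scaffold of the 19S base, had the widest of these regions, with 1033 bp, a fold of 3.45 and −log10 q of 2.27. The 15 marked in DMSO alone were Psma3, Psma4, Psmb2, Psmb3, Psmb6, Psmb9, Psmc1, Psmd5, Psmd6, Psmd8, Psmd13, Psmd14, Psme3, Psmg1 and Psmg4. They included the catalytic genes Psmb6 and Psmb9 and the lid deubiquitinase gene Psmd14, whose DMSO region was 1034 bp wide. Psmb2 had the highest −log10 q of the 15, at 2.61. The genes without a region in either list were Psma6, Psma8, Psmb10, Psmd4, Psmd10, Psme2, Psme2b and Psmf1. The start sites of Psma3 and Psmf1 lie outside the 1 kb windows, so regions there were not counted.

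Within 2.5 kb of the gene ends, fewer bases were covered by H3K27ac regions in CD than in DMSO at 31 proteasome genes, more at 16, and equal numbers at 4. Over all protein-coding genes 32.1% had fewer in CD, 35.8% more and 32.1% equal numbers. Of the genes that differed, 16 of 47 proteasome genes were higher in CD, against 52.7% of all. The median CD minus DMSO difference was −141 bases over proteasome genes and 0 over all. When only regions from a −log10 q of 2 upward were kept, the proteasome median was 0, as over all genes. With this limit 8 genes were higher in CD (9.69% of all genes), 15 lower (11.8% of all) and 28 equal. The proteasome genes had median covered lengths of 398 bases (CD) and 482 bases (DMSO), and all genes 169 and 0. Among bound genes, 20 of 30 proteasome genes were lower in CD, against 49.5% of all, and 10 were higher, against 43.7%, with none equal, against 6.8%. Among genes without a shared peak, 11 of 21 proteasome genes were lower in CD, against 23.7% of all, and 6 were higher, against 32%. With 1 list per condition, treatment and library cannot be told apart.

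By role, the lean toward DMSO was found in 6 of 7 beta genes, 5 of 7 alpha genes, 4 of 6 ATPase genes, 8 of 11 non-ATPase genes, 3 of 5 activator genes and 4 of 8 assembly and inhibitor genes, where 32.1% of all genes were lower in CD. The tissue-specific or inducible core genes had 1 lower in CD, 3 higher and 1 equal. Psmb3 had the widest gap, with 28 bases covered after CD and 2317 after DMSO. Psmd1, the other large scaffold of the base, had 501 in CD and 2248 in DMSO. Psmb9 had 0 in CD and 1116 in DMSO, and Psmd14 0 and 1034. In the other direction, Psmd11 had 1239 in CD and 201 in DMSO, and Psmd2 1033 and 0. Psmb8 was nearly level, with 982 in CD and 912 in DMSO, and its CD region reached a −log10 q of 3.14 and its DMSO region 3.92.

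**Figure D4:**
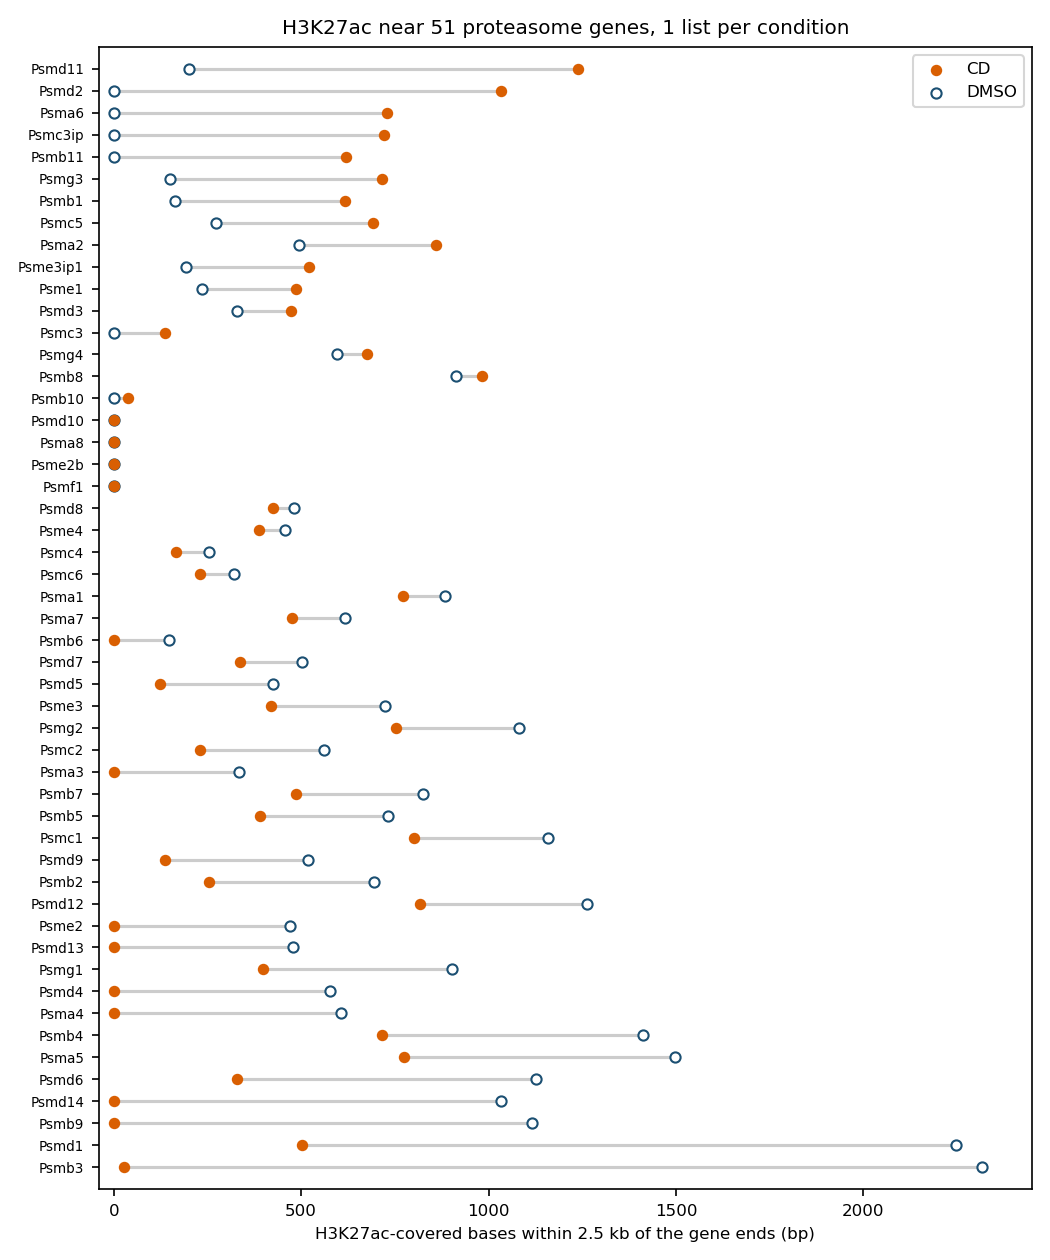
H3K27ac-covered bases within 2.5 kb of the ends of each proteasome gene, with CD as filled and DMSO as open circles, 1 list per condition and no replicate error. The genes are ordered by the CD minus DMSO difference, with 16 higher in CD at the top and 31 lower in CD at the bottom, ending at Psmb3 (28 and 2317 bases).

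With all regions kept, the wider surroundings did not follow the near window. Within 50 kb, 30 proteasome genes had more covered bases in CD (59% of all genes), 21 fewer (31.5% of all) and none equal numbers (9.44% of all), with medians of 3663 in CD and 3413 in DMSO. Of all genes that differed, 65.2% were higher in CD. The median difference was 433 bases over proteasome genes and 262 over all genes. At 17 genes CD was lower in the near window and higher in the wide one, and the same share over all genes was not computed. The median turned to −185 when only regions from a −log10 q of 2 upward were kept. CD was then higher at 17 genes (34.5% of all genes) and lower at 32 (39.1% of all). With covered lengths matched between the lists the median was −116, with 24 genes higher in CD (46% of all) and 26 lower (42.7% of all). In both settings the median over all genes was 0.

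Psmd5, a chaperone of the 19S base, had the largest excess in CD, with 6145 bases in CD and 1662 in DMSO. It was followed by the ATPase genes Psmc4 (4342 in CD and 1750 in DMSO) and Psmc5 (5137 and 2569) and by Psmb4 (4666 and 2254), Psmb1 (6292 and 3896), Psmb6 (3528 and 1210), Psmd2 (5441 and 3360) and Psmd8 (4209 and 2452). The largest excess in DMSO was at Psme2, with 3041 in CD and 5509 in DMSO. It was followed by Psma7 (2259 in CD and 4705 in DMSO), Psme3 (3051 and 5299), Psmd4 (3598 and 5609), Psmd11 (4313 and 6317), Psma5 (3508 and 4816), Psmc3ip (3441 and 4627) and Psmd1 (4750 and 5923). By role, 5 of 6 ATPase genes, 6 of 7 beta genes and 7 of 8 assembly and inhibitor genes had more in CD, as did 7 of 11 non-ATPase genes, where 59% of all genes did. Fewer were covered in CD at 6 of 7 alpha genes, 4 of 5 tissue-specific or inducible core genes and 3 of 5 activator genes, where 31.5% of all genes had fewer. Of these, Psmb11 was nearly level, with 4655 in CD and 4661 in DMSO. The windows of Psmb8 and Psmb9, of Psme1 and Psme2 and of Psmb5 and Psmb11 overlap, so regions there count for both genes.

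**Figure D5:**
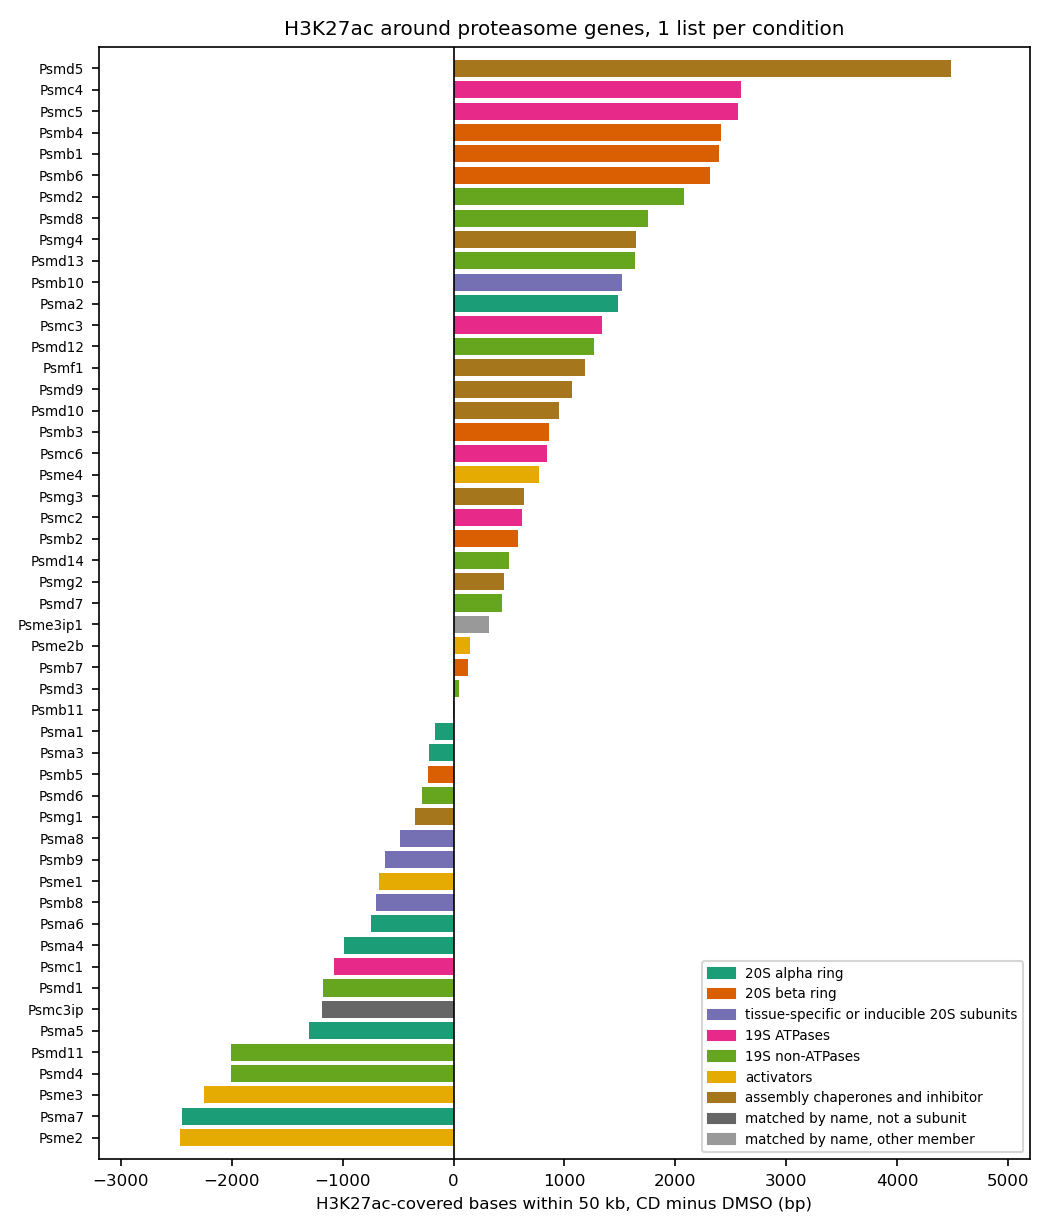
CD minus DMSO difference in H3K27ac-covered bases within 50 kb of the ends of each proteasome gene, coloured by role, with 1 list per condition. Bars run from 4483 bases at Psmd5 to −2468 at Psme2, with 30 genes above 0 and 21 below.

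The Flag-Rxra peaks themselves overlapped H3K27ac regions at 13 of the 30 bound genes in CD and at 18 in DMSO, of which 7 did so in both and 6 in neither. Of all 6406 shared peaks at gene ends, 35.8% overlapped a CD region and 43.9% a DMSO region. Psmc4 had its peak in a CD region only, Psmb6 in a DMSO region only, Psmd3 and Psmd12 in both, and Psmb10 and Psme2 in neither. Within 50 kb, proteasome genes had a median of 2 shared Flag-Rxra peaks, with a range of 0 to 7, and all genes had a median of 1.

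Other genes of the pathway were taken from a list of 34 found in the annotation. Flag-Rxra peaks lay at 25 of them, where 32.6% of all genes were bound, among them 9 of 11 other proteasome parts and cofactors, 7 of 8 substrate delivery genes, 5 of 9 regulators of proteasome genes and 4 of 6 ubiquitin or E1 genes. Vcp, the segregase that extracts ubiquitinated proteins, had folds of 18.3 and 24.1. Rad23b, a shuttle to the proteasome, had 22.6 and 21.0. Nfe2l1 had 10.00 and 24.2 at its peak and Nfe2l2, a related stress factor, 10.5 and 17.3. Both held regions in both lists, and the 2.5 kb windows of Nfe2l1 held 1225 bases in CD and 518 in DMSO, those of Nfe2l2 999 and 421. The assembly chaperone gene Pomp had folds of 9.48 and 17.3, with 0 bases in CD and 697 in DMSO. Over the 34 genes, 13 had more near bases in CD (35.8% of all genes), 18 fewer (32.1% of all) and 3 equal.

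Compared families gave these counts by the same rules. Cytosolic ribosomal protein genes were bound at 48 of 87 (55.2%, 44.1 to 65.9) and RNA exosome core genes at 8 of 10 (80.0%, 44.4 to 97.5), with overlapping intervals. Within 2.5 kb, CD was lower at 47 and higher at 38 ribosomal genes, and lower at 6 and higher at 4 exosome genes, where 32.1% of all genes were lower and 35.8% higher. H3K27ac regions lay at the ends of 68 ribosomal genes in CD (78.2%) and 71 in DMSO (81.6%), and of 5 exosome genes in CD and 9 in DMSO, where 38.3% and 35.8% of all genes were marked. The differences between these families and the proteasome genes were not tested.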

How the data were processed

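The authors deposited peak lists made from CUT&Tag reads. Named in the submitters' processing notes are MACS2 2.1.2 (a peak caller), Bowtie2 2.2.5 (an aligner), fastp 0.20.1 and deepTools 3.4.3, with the build mm10. Peak calling settings, any control library and the way H3K27ac replicates were combined are not given in the sources used here. Per the labels, both H3K27ac samples of a condition name 1 list. The deposited columns used were the fold ratio of each peak over background, its −log10 q and, for Flag-Rxra, the summit position (a base position of another unit). The deposited score and −log10 p columns were not used. Flag-Rxra lists stop at a −log10 q of 5.00 and H3K27ac lists at 1.00, so H3K27ac calls are far more lenient.

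Peaks of the autosomes, X and Y were set against RefSeq genes (GRCm38.p6, the assembly of mm10). An overlap meant 1 bp or more. Where a peak overlapped several replicate 2 peaks, the highest replicate 2 fold was used. Covered bases are the bases of called regions within 2.5 kb or 50 kb of either gene end. Start sites and promoter sequences came from RefSeq for 43 of the 51 genes, and strand was not used for the others. Shares carry exact (Clopper-Pearson) 95% intervals. No test was run, because H3K27ac had 1 list per condition and the Flag-Rxra lists have no contrast. Named were the 15 bound genes with the best mean rank of fold, bound catalytic beta genes, the 8 genes with the largest CD and the 8 with the largest DMSO excess within 50 kb, and genes marked in 1 condition. Other named genes were chosen after their values were seen. The members, lists and rules were chosen with earlier results of these data known. Functions were tested on simulated peaks. Python 3.11.15, numpy 2.4.6, pandas 2.3.3, scipy 1.17.1 and matplotlib 3.10.9 were used.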

Additional observations from a re-analysis of the deposited data

How the results depend on the processing

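The count of 30 bound proteasome genes was 16 when Flag-Rxra peaks below a −log10 q of 20 were dropped (24.2% of all genes) and to 16 when replicate peaks had to overlap by 50% (20.2% of all). Leaving out a replicate gave 33 without replicate 1 (42.1% of all) and 38 without replicate 2 (41.7% of all). With 2.5 kb and 0.5 kb windows 32 and 28 were bound (37% and 30.1% of all). When peaks below a −log10 q of 10 were dropped, 27 were bound (31.4% of all). H3K27ac regions of 2 or more left 6 marked genes in CD (6.65% of all genes) and 13 in DMSO (8.84% of all), and those of 5 or more left 0 (0.155% of all) and 1 (0.151% of all). Within 2.5 kb, regions of 2 or more gave 8 genes higher in CD (9.69% of all), 15 lower (11.8% of all) and 28 equal, with a median difference of 0. Weighting bases by fold gave a median of −420.2, against 0 over all genes. With covered lengths matched, 14 were higher in CD (31.3% of all) and 33 lower (34.1% of all). Within 50 kb, regions of 2 or more gave 17 genes higher in CD (34.5% of all) and 32 lower (39.1% of all), with a median of −185. Matched lengths gave a median of −116, and weighting by fold a median of 1943. Over all genes these medians were 0, 0 and 972. With 1 gene kept of those whose 50 kb windows overlap, 30 of 48 were higher in CD (59% of all) and 18 lower (31.5% of all). The median was then 479.5, against 262 over all genes. The cause of these changes was not tested, beyond the fewer regions that stricter limits leave. Without Psmc3ip and Psme3ip1, an alternative chosen after seeing the data, the counts and medians kept their direction. No paired analysis was possible because the H3K27ac replicates of a condition share a single list and Flag-Rxra had no group to compare with. Leaving out an H3K27ac replicate was not possible for the same reason. The depth of the libraries is unknown.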
